A study of Rattus norvegicus with 9 samples.

Results

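The transcripts of 8 genes of macrophages and other leukocytes were followed in kidney RNA: Ptprc (ENSMUSG00000026395), Cd68 (ENSMUSG00000018774), Adgre1 (ENSMUSG00000004730), Csf1r (ENSMUSG00000024621), Lyz2 (ENSMUSG00000069516), C1qa (ENSMUSG00000036887), C1qb (ENSMUSG00000036905) and C1qc (ENSMUSG00000036896). They were chosen as known genes of these cells, by identifier and by a rule that sets no limit on measured values, although earlier results of these data were known. All 8 identifiers were among the 17862 listed features. RNA depleted of ribosomal RNA was sequenced from 9 kidney samples in 3 groups of 3, each at 6 weeks of age. The WT group carries the treatment label Normal, the Model group Hypertension, and the QDG group Hypertension+QDG, so the hypertensive state was common to Model and QDG. QDG is Qingda granule, a Chinese herbal preparation. The labels give the rat as the organism, while the 8 identifiers have the prefix of mouse genes, and which species the reads came from cannot be told from the identifiers. The sources used here give no strain, no sex, no granule dose and no account of how hypertension came about. They also do not say that samples of a group were separate animals, so the p-values below reflect only the spread between samples, and part of it may be technical.

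Macrophages live in the kidney between the tubules and around the vessels, where they clear debris and take part in inflammation and repair. Most of them depend on signals through the receptor Csf1r, and they are a main source of C1q, the recognition molecule of the classical complement pathway. C1q is assembled from the products of C1qa, C1qb and C1qc, which bind to antibodies and dying cells and start the complement cascade. A whole-kidney sample holds mostly tubule cells, so each value below is the level in the mixture, and more cells of a type cannot be told apart from more RNA per cell. Other identifiers come without gene names, so markers of neutrophils, lymphocytes, red cells and kidney segments were not analysed here, and the kidney label was not checked against markers.

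Of the C1q genes, C1qa and C1qb are presented with sequence, because the C1q genes are neighbours in the genome and their levels were compared below. In the rat assembly GRCr8, C1qb, C1qc and C1qa follow each other with no other listed gene between them. Promoter sequences from RefSeq (GRCr8) were matched by symbol for 7 of the 8 genes, with none available for C1qc. Each sequence ran from 250 bases before the gene start to 50 bases after it. Those of C1qa, at chr5:154419884-154420183 (minus strand), of C1qb, at chr5:154407778-154408077 (minus strand), and of Lyz2, at chr7:54797962-54798261 (minus strand), are given 5′ to 3′ along the gene. Lyz2 is shown beside them as the most abundant of the 8 transcripts. Capitals mark each match to GGAAGT or its reverse complement ACTTCC, a core sequence recognised by ETS-family factors such as PU.1, a regulator of macrophage genes.
C1qa promoter: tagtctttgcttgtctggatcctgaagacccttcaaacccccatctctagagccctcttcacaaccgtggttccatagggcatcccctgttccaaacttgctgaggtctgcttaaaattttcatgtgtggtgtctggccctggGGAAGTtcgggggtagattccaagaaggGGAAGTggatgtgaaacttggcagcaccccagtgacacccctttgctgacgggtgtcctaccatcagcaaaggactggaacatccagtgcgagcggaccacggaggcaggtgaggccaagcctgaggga
C1qb promoter: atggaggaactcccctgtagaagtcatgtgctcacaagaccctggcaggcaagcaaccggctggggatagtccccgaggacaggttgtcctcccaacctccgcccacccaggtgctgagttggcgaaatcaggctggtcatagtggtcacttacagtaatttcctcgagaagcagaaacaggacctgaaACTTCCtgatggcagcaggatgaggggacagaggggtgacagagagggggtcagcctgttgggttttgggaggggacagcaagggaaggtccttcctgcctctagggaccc
Lyz2 promoter: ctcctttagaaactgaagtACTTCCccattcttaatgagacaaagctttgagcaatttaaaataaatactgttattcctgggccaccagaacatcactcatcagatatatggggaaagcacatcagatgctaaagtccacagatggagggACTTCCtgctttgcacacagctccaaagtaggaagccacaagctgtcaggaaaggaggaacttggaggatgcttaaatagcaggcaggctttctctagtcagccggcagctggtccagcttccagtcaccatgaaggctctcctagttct
C1qa held 2 matches, on the gene's own strand, beginning 107 and 79 bases before the start. C1qb held 1 match, on the other strand, beginning 61 bases before the start. Lyz2 held 2 matches, also on the other strand, beginning 231 and 100 bases before the start. Of the 7 promoters 5 held a match, those of C1qa, C1qb, Lyz2, Ptprc and Cd68, against 22.6% of 33469 promoters of the same length. Adgre1 and Csf1r held none in this window. A match of letters is a description and not a measured binding site. The rat sequences were paired by symbol with features that carry mouse identifiers.

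The 8 transcripts covered a wide range of abundance. Levels are given in FPKM, reads or fragments scaled to feature length and library total. A comparison across genes therefore rests on the feature lengths behind the values, whose annotation is not named. Averaged over the 9 libraries, Lyz2 stood highest at 22.7 FPKM, followed by C1qa at 14.4, C1qb at 13.6, Csf1r at 8.13, C1qc at 5.13, Cd68 at 2.09, Adgre1 at 0.870 and Ptprc at 0.437. C1qb was above Csf1r, Csf1r above C1qc, C1qc above Cd68, Cd68 above Adgre1 and Adgre1 above Ptprc in 9 of 9 libraries. Neighbours at the top of this order were not separated in every library: Lyz2 exceeded C1qa in 7 of 9, and C1qa exceeded C1qb in 6 of 9. Whole reads recovered from the steps of the values put 45 to 117 reads per library on Adgre1, 46 to 106 on Cd68, 133 to 455 on C1qc and 750 to 2398 on Csf1r. Ptprc, the lowest in FPKM, held 164 to 310 reads, more than Adgre1, over a recovered length of 18313 bases against 3238. The listed features held 26.7 M to 29.4 M reads per library.

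Ptprc encodes CD45, a phosphatase on the surface of nucleated blood cells. Its level was 0.448, 0.340 and 0.537 FPKM in WT 1, 2 and 3, then 0.431, 0.357 and 0.427 in Model, and 0.336, 0.578 and 0.478 in QDG. The groups overlapped fully, and the 9 values stayed within 1.72-fold of each other. The feature length recovered for Ptprc was 18313 bases, which lowers its value per length relative to its 164 to 310 reads.

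Among the macrophage surface receptors, Adgre1 encodes an adhesion receptor used to mark mouse macrophages. It stood at 0.813, 0.575 and 1.02 FPKM in WT, at 0.955, 1.04 and 0.944 in Model and at 0.484, 1.23 and 0.763 in QDG. The Model values lay close together, while the lowest and the highest of the 9 were both in QDG. Csf1r encodes the receptor for the growth factors CSF1 and IL-34, on which macrophage survival depends. Its level was 7.71, 4.94 and 7.42 FPKM in WT, 7.68, 13.8 and 6.68 in Model, and 8.29, 9.43 and 7.21 in QDG. Model 2 stood alone at 13.8 FPKM, above all other libraries, and WT 2 was lowest.

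Cd68 and Lyz2 belong to the digestive machinery of phagocytes. Cd68 encodes a glycoprotein of the lysosome and endosome membrane. It was at 2.91, 2.21 and 2.43 FPKM in WT, at 2.13, 1.91 and 1.36 in Model, and at 1.49, 2.88 and 1.46 in QDG. All WT values lay above all Model values, by a narrow margin between WT 2 and Model 1. Lyz2 encodes lysozyme, an enzyme that breaks bacterial cell walls, made by macrophages and neutrophils. Its values were 33.3, 18.5 and 23.8 FPKM in WT, 15.5, 26.6 and 20.5 in Model, and 11.98, 35.2 and 18.97 in QDG. The groups overlapped, and QDG alone spanned the whole range of the 9 libraries. Lysozyme genes occur as near-identical copies in rodents, and how the authors' counting divided reads between such copies is not stated, so the Lyz2 values are uncertain in that respect.

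The 3 C1q genes showed a common picture, with Model values above WT values and close together. C1qa was at 10.6, 6.47 and 14.4 FPKM in WT, at 16.1, 16.7 and 18.5 in Model, and at 12.6, 23.4 and 10.97 in QDG. C1qb stood at 12.03, 7.65 and 13.4 FPKM in WT, 15.5, 15.8 and 13.6 in Model, and 9.18, 22.2 and 12.9 in QDG. C1qc was at 3.93, 2.62 and 5.36 FPKM in WT, 5.65, 5.89 and 5.56 in Model, and 4.56, 8.05 and 4.59 in QDG. For each of them all 3 Model values lay above all 3 WT values, WT 2 was the lowest of the 9 libraries and QDG 2 the highest. Model 3 exceeded WT 3 by only 0.228 FPKM for C1qb and 0.199 for C1qc.

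**Figure D1:**
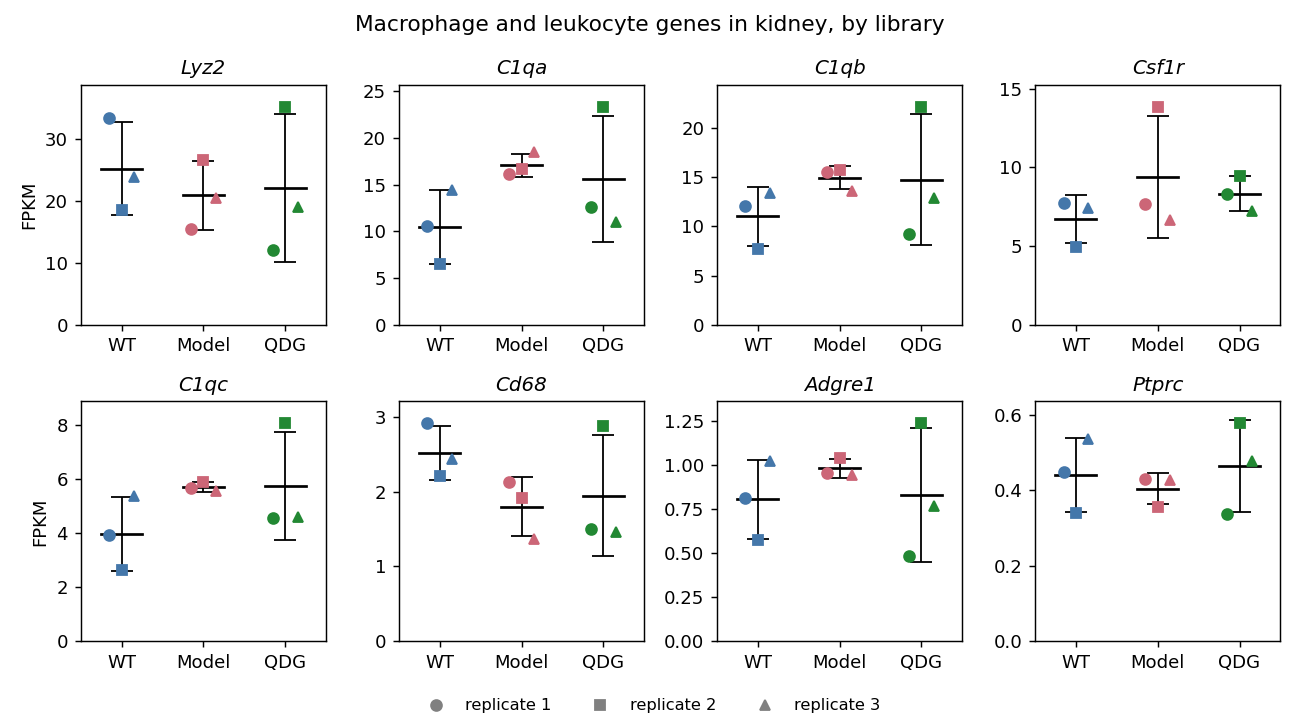
Level of each gene in FPKM (vertical axis, from 0) by group. Coloured points are single libraries with the replicate number shown by shape, and black lines are the mean and SD of 3 libraries. QDG 2 (green square) is above the other QDG libraries in all 8 panels, and WT 2 (blue square) is below the other WT libraries in all 8.

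Single libraries, picked after the values were seen, lay at the end of their group for the whole set. QDG 2 was the highest QDG library for 8 of 8 genes, and WT 2 the lowest WT library for 8 of 8. Among the 12187 features averaging 1 FPKM or more, QDG 2 was the highest of its group for 28.2% and WT 2 the lowest of its group for 32.4%. The 8 genes are not independent counts, since the products of the C1q genes among them form 1 complex. On the log2(FPKM + 1) scale the 8 genes deviated from their group mean by a median of 0.45 in QDG 2 and −0.37 in WT 2, where the median over all these features was −0.01 and 0.01. QDG 2 exceeded the mean of QDG 1 and QDG 3 by 2.27-fold for Lyz2, 2.01-fold for C1qb, 1.98-fold for C1qa and Adgre1, 1.95-fold for Cd68, 1.76-fold for C1qc, 1.42-fold for Ptprc and 1.22-fold for Csf1r. The ratio of WT 2 to the mean of WT 1 and WT 3 ran from 0.518 for C1qa to 0.826 for Cd68. The listed features held 28.1 M reads in QDG 2 and 26.7 M in WT 2, the lowest of the 9. The part of depth in these deviations was not tested.

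**Figure D2:**
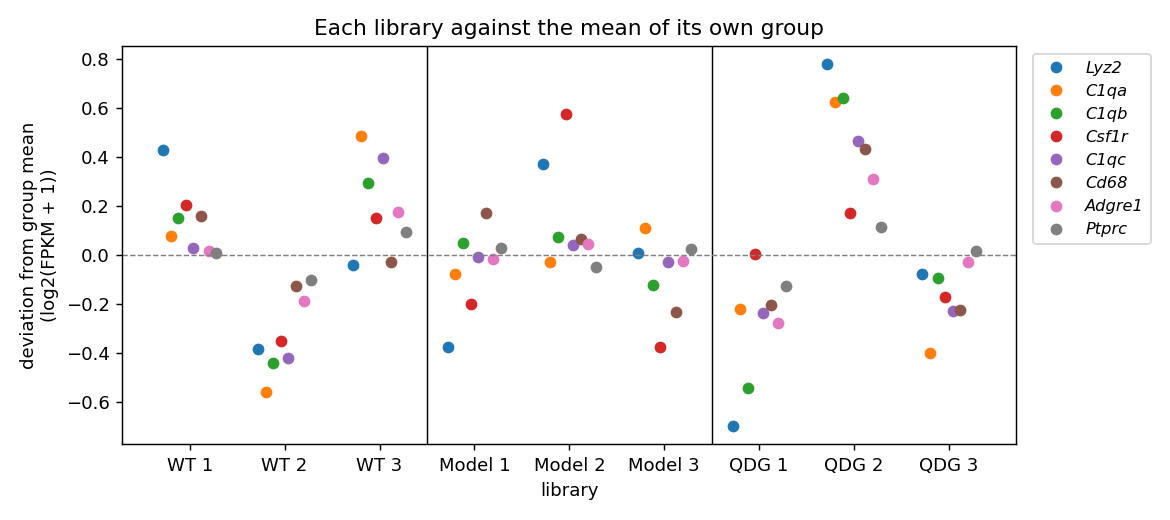
Deviation of each library from the mean of its own group on the log2(FPKM + 1) scale (vertical axis) for the 8 genes (colours). All 8 points of QDG 2 are above 0 and all 8 of WT 2 below 0, with medians of 0.45 and −0.37.

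The spread of these genes as a set was wide for this data set in QDG and for most of them in WT, while in Model it differed by gene. Of the 8, 6 averaged 1 FPKM or more and entered the tests (Cd68, Csf1r, Lyz2, C1qa, C1qb and C1qc). Their median SD on the log2(FPKM + 1) scale was 0.48 in QDG, against 0.09 over all tested features. It was 0.40 against 0.19 in WT and 0.16 against 0.15 in Model. In WT, 5 of the 6 had an SD above the median of all tested features. The exception was Cd68 (0.15), whose SD was larger than that of only 35.8%. In QDG, the SD of Lyz2 (0.74) was larger than that of 99.6% of tested features, and those of C1qb (0.60) and C1qa (0.55) larger than that of 99.1% and 98.9%. In Model, the SD of C1qc (0.04) was larger than that of only 4.81%, with C1qa at 28% and C1qb at 32.7%. That of Csf1r (0.51) was larger than that of 96.5%, through Model 2, with Lyz2 at 91.9% and Cd68 at 71.3%.

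Model was set against WT to ask how the hypertensive kidney differs. None of the 6 tested genes passed (0 of 6; limma, adjusted p under 0.05, over 12187 features), where 7.90% of all tested features did. At an unadjusted p under 0.05 there was 1 of 6, against 28.0% of all tested features, and limma's voom on recovered reads also called 0. C1qa had the largest difference, with a mean of 10.5 ± 3.96 FPKM in WT and 17.1 ± 1.24 in Model (SD, n = 3), a log2 difference of 0.72 (SE 0.29, limma adjusted p = 0.140). The matching fold on the FPKM + 1 scale was 1.64, with an unadjusted 95% interval of 1.05 to 2.56. C1qc averaged 3.97 ± 1.37 and 5.70 ± 0.169 FPKM (log2 difference 0.47, SE 0.22, limma adjusted p = 0.199), and C1qb 11.03 ± 3.00 and 14.97 ± 1.17 FPKM (0.44, SE 0.27, limma adjusted p = 0.320). All 3 Model values were above all 3 WT values for 3 of 6 genes, the C1q genes, against 17.3% of tested features. All were below for 1 of 6, Cd68, against 10.9%. The C1q genes are neighbours whose products form 1 complex, so they are not independent counts. The size of their difference depended on single WT libraries. Without WT 2 the log2 differences of C1qa, C1qb and C1qc were 0.44, 0.22 and 0.26. Without WT 3 they were 0.96, 0.59 and 0.66. WT 2 was the lowest and WT 3 the highest WT library for these genes, so the direction of both shifts was fixed.

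Cd68 and Lyz2 lay on the other side. Cd68 averaged 2.52 ± 0.361 FPKM in WT and 1.80 ± 0.394 in Model (SD, n = 3), a log2 difference of −0.33 (SE 0.18, limma adjusted p = 0.263). Lyz2 averaged 25.2 ± 7.52 and 20.9 ± 5.61 FPKM (log2 difference −0.25, 95% interval −1.02 to 0.51, limma adjusted p = 0.662). Csf1r averaged 6.69 ± 1.52 and 9.40 ± 3.88 FPKM, a log2 difference of 0.39 that was 0.11 without Model 2 (limma adjusted p = 0.303 with all libraries). The differences of the 6 genes thus had mixed signs, 4 positive and 2 negative with a median of 0.42, where the median over all tested features was 0.02. Ptprc and Adgre1, which fell under the limit of 1 FPKM, differed by log2 values of −0.04 and 0.14 in a fit to all 17862 features (limma adjusted p = 0.820 and 0.596). That scale understates differences at values this low. It also does so for Cd68, whose difference was −0.48 with 0.1 in place of 1 added to FPKM (limma adjusted p = 0.266).

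**Figure D3:**
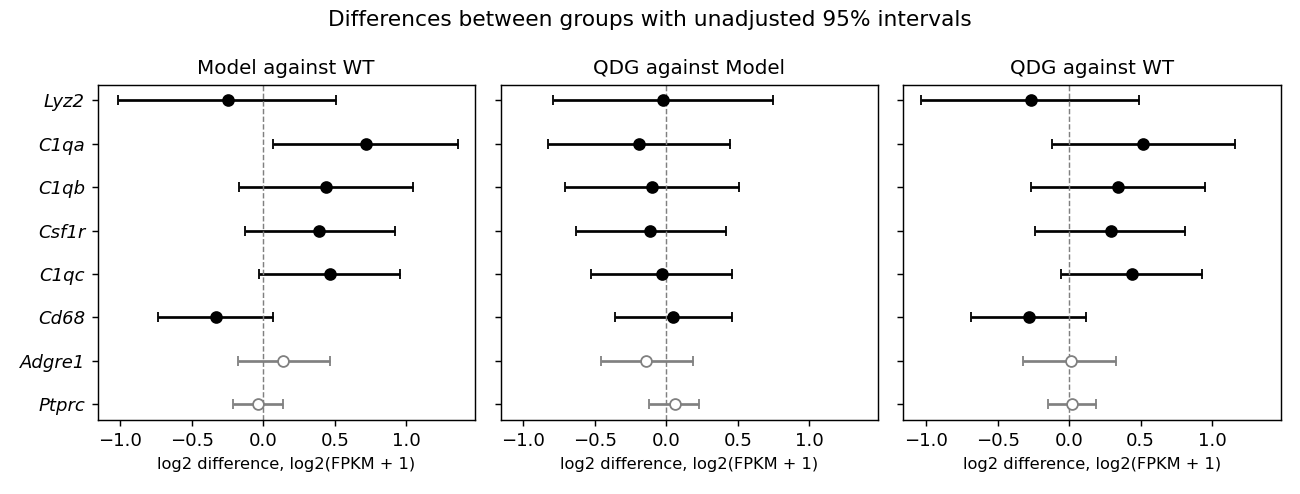
Log2 difference on the log2(FPKM + 1) scale (horizontal axis) of each gene in the 3 comparisons, with unadjusted 95% intervals. Filled points come from the fit to the 12187 tested features and open points, for genes under 1 FPKM, from the fit to all features. The interval of C1qa in Model against WT, 0.07 to 1.36, is the only one that leaves out 0, and that difference did not pass after adjustment.

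QDG was set against Model to ask what the granule alters in hypertension. No gene of the 6 passed (limma, lowest adjusted p = 0.788), and 0% of all tested features did. At an unadjusted p under 0.05 there were 0 of 6, against 13.9% of all tested features, and voom called 0 as well. The means lay close together, with C1qa at 17.1 ± 1.24 FPKM in Model and 15.6 ± 6.74 in QDG (SD, n = 3), C1qb at 14.97 ± 1.17 and 14.8 ± 6.69, and C1qc at 5.70 ± 0.169 and 5.73 ± 2.01. Their log2 differences were −0.19, −0.10 and −0.03. The unadjusted 95% interval for C1qa ran from −0.83 to 0.45, and that for Lyz2 from −0.79 to 0.75, and differences within these intervals in either direction are not excluded. No gene of the 8 had all QDG values above all Model values, against 10.4% of tested features, or all below, against 16.3%. Without QDG 2 the log2 differences were −0.50 for C1qa, −0.42 for C1qb, −0.26 for C1qc, −0.41 for Lyz2, −0.19 for Csf1r and −0.17 for Cd68. Without QDG 1 they were 0.33 for Lyz2, 0.17 for C1qb, 0.15 for Cd68 and 0.09 for C1qc, the other way. C1qa at −0.08 and Csf1r at −0.11 stayed negative. None passed in either fit.

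QDG was set against WT to see how treated hypertensive kidney stands to normal kidney. Of the 6 genes 0 passed (limma, lowest adjusted p = 0.290), against 2.47% of all tested features. That share varied from 0.320% without QDG 2 to 6.36% without WT 3 when 1 library was left out. At an unadjusted p under 0.05 there were 0 of 6, against 21.3%, and voom called 0. The log2 difference was 0.52 for C1qa, 0.44 for C1qc, 0.34 for C1qb and 0.29 for Csf1r, and −0.28 for Cd68 and −0.27 for Lyz2, with a median of 0.31 over the 6 and of 0 over all tested features. QDG and WT values overlapped for each of the 8 genes, where 15.2% of tested features had all QDG values above all WT values and 12.5% all below. This comparison shares its WT libraries with that of Model against WT and its QDG libraries with that of QDG against Model, so the 3 sets of differences are not separate evidence. With WT 2 and QDG 2 both left out, an alternative chosen after seeing the data, the log2 differences of QDG from WT were −0.07 for C1qa, −0.20 for C1qb, −0.01 for C1qc, 0.03 for Csf1r, −0.56 for Cd68 and −0.86 for Lyz2, none past the threshold. Single libraries also moved them: Csf1r was 0.11 without WT 2, Cd68 −0.50 without QDG 2, and Lyz2 0.08 without QDG 1 and −0.06 without WT 1.

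The proportions of the C1q transcripts varied less than their levels. The summed level of the 3 genes ranged from 16.7 FPKM in WT 2 to 53.6 in QDG 2. C1qa made up 43.1% ± 3.70 (SD, n = 9) of that sum, C1qb 41.3% ± 3.88 and C1qc 15.6% ± 0.829. The share of C1qc stayed between 14.8% and 17.3% in every library. With C1qc nearly constant, the shares of C1qa and C1qb had to mirror each other, with C1qa from 38.5% in QDG 3 to 49.1% in Model 3 and C1qb from 34.9% in QDG 1 to 45.7% in WT 2. By group, C1qa held 40.7% ± 2.46 in WT, 45.3% ± 3.29 in Model and 43.3% ± 4.65 in QDG (n = 3 each). The ranges of WT (38.6% to 43.4%) and Model (43.2% to 49.1%) overlapped only at their ends, and no test was made. Measured in reads, the lowest and highest C1qa shares were 33.2% of 972 C1q reads in QDG 3 (95% exact Clopper-Pearson interval 30.3% to 36.3%) and 42.9% of 1202 in Model 3 (40.1% to 45.8%). These intervals cover counting error only, and as the extremes of 9 libraries they say nothing about groups. C1qc, the least abundant of the 3 per length, has the longest recovered feature at 1931 bases, against 1040 for C1qa and 1088 for C1qb.

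**Figure D4:**
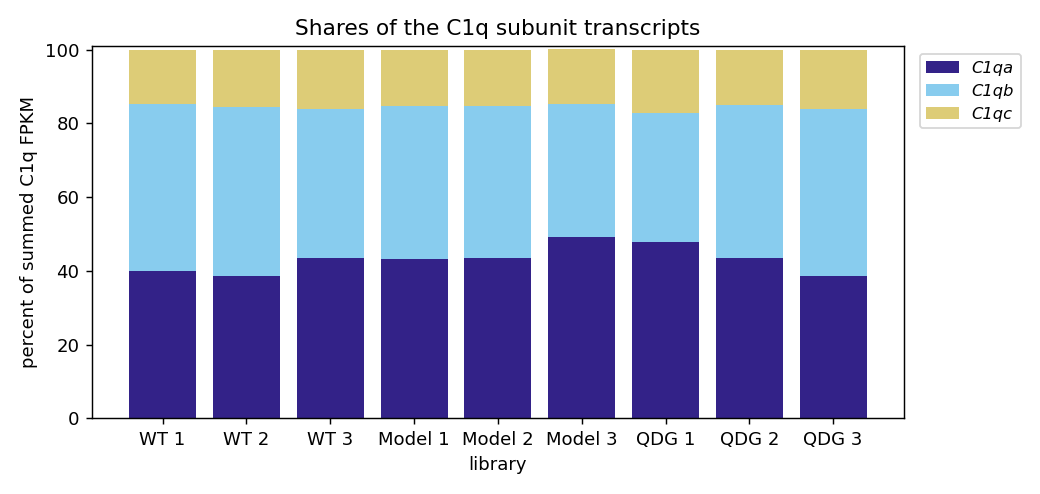
Share of C1qa, C1qb and C1qc in their summed FPKM (vertical axis, percent) in each of the 9 libraries. The C1qc share lies between 14.8% and 17.3% throughout, while the boundary between C1qa and C1qb moves from 38.5% in QDG 3 to 49.1% in Model 3.

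The genes followed their mean profile unequally. The profile was the mean, over the 6 tested genes, of log2(FPKM + 1) centred on the 9 libraries. It was lowest in WT 2 (−0.52) and QDG 1 (−0.28) and highest in QDG 2 (0.55) and Model 2 (0.28). Closeness was measured as the root mean square difference from it over the 9 libraries. This was 0.144 for C1qb, 0.157 for C1qc, 0.238 for Csf1r, 0.266 for C1qa, 0.294 for Cd68 and 0.324 for Lyz2, each of which contributes to the profile, 3 of the 6 being C1q genes. A feature that did not change at all would stand at 0.292. By this measure Cd68 and Lyz2 were no closer to the profile than such a feature. The measure counts the size of a change as well as its direction. A gene that moves with the profile but more strongly therefore also stands far from it. Lyz2, like the profile, was highest in QDG 2, while Cd68 was highest in WT 1. Of the tested features outside the set, 0.0246% were closer than C1qb, 0.0739% than C1qc, 2.11% than Csf1r, 6.47% than C1qa, 15.3% than Cd68 and 30.5% than Lyz2. Those features did not contribute to the profile, so these percentages favour the 6 genes in advance. Outside the set, the closest features were ENSMUSG00000024610, at 0.091 and a mean of 90.9 FPKM, and ENSMUSG00000036594, at 0.132 and 17.1 FPKM. No gene name is paired with either in the files.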

How the data were processed

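Kidney RNA of 9 samples was analysed in 3 groups of 3 (WT, Model, QDG). Total RNA was depleted of ribosomal RNA and made into libraries with an NEB Next Ultra kit, per the labels' protocols. The deposited files of the authors hold 1 column of values each, taken here to be FPKM because the values move in steps of whole reads divided by feature length and a library total. The submitters' processing notes name limma, and the aligner, counter, build and annotation are not named there. Whole reads were recovered from these steps for all 17862 features, within 0.0001 read or 2e-07 of the count (within 0.05 read for 1182 features with high counts). The scaling totals, 26.2 M to 31.4 M, were below the recovered reads of the listed features in 4 of 9 libraries, so they are not plain sums of those reads, and what set them is not stated. No value was 0. Gene symbols of the 8 identifiers came with the choice of genes. The other gene lists, written in symbols, could not be matched and were not used.

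The 12187 features averaging 1 FPKM or more were tested on log2(FPKM + 1) with limma 3.58.1 (R 4.3.3), an intensity trend and all 9 libraries in 1 fit. Tests were two-sided, with Benjamini-Hochberg adjustment over all tested features and a threshold of 0.05. All 8 genes are named whether or not they passed, and the features closest to the common profile were chosen by the smallest root mean square difference. The genes and lists were chosen with earlier results of these data known. Alternatives changed the pseudocount, filter, scaling, fitted groups, replicate block, feature length and libraries, and used limma's voom on recovered reads. Comparisons within groups showed no library whose counts repeated another's within counting noise.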

Additional observations from a re-analysis of the deposited data

How the results depend on the processing

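Of the 8 genes, 0 passed the threshold in any of the 3 comparisons under any of 20 alternatives (19 for Cd68 and 18 for Ptprc and Adgre1, which had no value under some). Removing both WT 2 and QDG 2 was chosen after seeing the data, and the others were not. The lowest adjusted p was 0.0644, for C1qa in Model against WT without WT 3. Over the alternatives the log2 difference of Model from WT stayed positive for C1qa (0.44 to 0.96), C1qb (0.21 to 0.59), C1qc (0.26 to 0.66) and Csf1r (0.11 to 0.58), and negative for Cd68 (−0.55 to −0.22) and Lyz2 (−0.47 to −0.04). Of the 24 differences, 14 took the other sign under some alternative, none of them past the threshold. For C1qa, C1qb and C1qc in QDG against WT, the only such alternative was the removal of both WT 2 and QDG 2. Removal of the length trend gave 0.48, 0.21 and 0.31 for C1qa, C1qb and C1qc in Model against WT, and the cause was not tested. Counted in reads without division by length, the C1q shares were 37.4% for C1qa and 25.1% for C1qc, in place of 43.1% and 15.6%, as the longer C1qc feature gains.

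No pairing of the samples by replicate number was seen, though these values cannot exclude one. Same-numbered libraries of different groups correlated at −0.33 to 0.14 in their deviations from the group means. A library's best match in another group had its own number in 5 of 18 cases. With the replicate block 533 features were called in Model against WT and 154 in QDG against WT, in place of 963 and 301, and 0 of the 8 genes. In QDG against WT, fits lacking 1 library called 39 (without QDG 2), 44 (without QDG 1), 65 (without QDG 3) and 73 (without WT 1) to 775 (without WT 3). In Model against WT the number of features called was lowest without Model 3 (195) and highest without WT 3 (1529) among the fits lacking 1 library, and fitting only the 2 groups called 144. The limit of 5 FPKM gave no value for Ptprc, Adgre1 or Cd68. With 45 to 117 reads per library on Adgre1 and 46 to 106 on Cd68, counting error adds to their spread.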

Other observations

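Within single libraries, lysozyme and complement transcripts did not keep a fixed ratio. Lyz2 divided by the summed C1qa, C1qb and C1qc FPKM was 1.26, 1.11 and 0.717 in WT 1, 2 and 3, then 0.415, 0.695 and 0.543 in Model, and 0.455, 0.657 and 0.666 in QDG. The means were 1.03 ± 0.278 (SD, n = 3) in WT, 0.551 ± 0.140 in Model and 0.593 ± 0.119 in QDG. WT 3 at 0.717 lay next to Model 2 at 0.695. A ratio within a library does not depend on that library's scaling total. What lies behind the differences in the ratio was not tested. The ratio was chosen after its values were seen, so it is given without a test. The uncertainty about lysozyme gene copies applies to it.

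Lyz2 divided by Csf1r was 4.32, 3.75 and 3.20 in WT, 2.01, 1.92 and 3.06 in Model, and 1.45, 3.73 and 2.63 in QDG. WT 3 at 3.20 lay next to Model 3 at 3.06, and QDG 2 lay among the WT values. This ratio too was chosen after its values were seen, and no test was made.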
